A study of Mus musculus with 18 samples.

Results

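The genes described here are 10 messages that restrain the step from G1 to S phase, or that act in growth control, chromatin reading and apoptosis, and that are known or likely targets of the embryonic stem cell specific cell cycle regulating (ESCC) microRNAs. They were taken by name from the deposited counts table, where each matched 1 of its 51467 genes: Cdkn1a, Cdkn1b, Rb1, Rbl1, Rbl2, Lats1, Lats2, Mbd2, Casp8 and Casp2. Of the 10, 9 passed the filter on low counts. Casp8 did not, and only its reads are given.

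The counts came from polysome profiling of mouse embryonic stem cells (ESCs) that were either wild type (WT) or knocked out for Dgcr8 (KO). All cells were grown in serum with LIF and 2i, the inhibitors PD0325901 and CHIR99021, and all were treated with 100 ug/ml cycloheximide for 2 min before lysis. From each of 6 gradients of 10 to 50% sucrose, 3 per genotype, RNA of the monosome, low polysome (2 to 4 ribosomes) and high polysome (4 ribosomes or more) fractions was sequenced from its 3′ ends, which gave 18 libraries in 6 groups of 3. The study's methods name V6.5 ESCs and list the Dgcr8 KO separately, as a line made earlier in the same lab. The labels name no clone of the KO, so the genotype cannot be told apart from the line that carries it. Nothing in the labels says that the gradients of a genotype came from separate cultures, so p-values measure the spread between libraries of these gradients, which may be technical. Every message was measured in a whole culture, where fewer cells expressing it and less RNA per cell cannot be told apart.

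DGCR8 is the RNA-binding partner of the nuclease DROSHA, and cells without it cannot make canonical microRNAs. In ESCs a large share of the microRNAs comes from the miR-290 and miR-302 clusters, whose ESCC members pair through a common seed with sites in 3′ untranslated regions (UTRs), lower translation of the message and shorten its life. Among their known or likely targets are brakes on the G1 to S transition. p21 and p27, encoded by Cdkn1a and Cdkn1b, inhibit cyclin-dependent kinases (CDKs), and the pocket proteins RB1, p107 (Rbl1) and p130 (Rbl2) hold E2F transcription factors in check until CDKs phosphorylate them. LATS1 and LATS2 are the kinases of the Hippo pathway that phosphorylate YAP and keep it from the nucleus.

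The ESCC seed was examined first, because it defines the sites that the members could share. In RefSeq's table on GRCm38.p6, 5 of 7 mature microRNAs matched from the miR-290 and miR-302 clusters had the same bases 2 to 8, which are in capitals in the sequences below. miR-291b-3p and miR-302c-3p had other bases there, and miR-302a-3p was not analysed here. miR-291a-3p, miR-294-3p and miR-295-3p lie on chromosome 7 (miR-294-3p at chr7:3220691-3220712, plus strand), and miR-302b-3p and miR-302d-3p on chromosome 3 (miR-302b-3p at chr3:127545275-127545297, plus strand). The sequences differ after the seed.
mmu-miR-291a-3p: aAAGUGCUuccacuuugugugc
mmu-miR-294-3p: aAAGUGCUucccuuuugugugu
mmu-miR-295-3p: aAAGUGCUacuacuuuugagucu
mmu-miR-302b-3p: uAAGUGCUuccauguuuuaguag
mmu-miR-302d-3p: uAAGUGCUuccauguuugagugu
Sites were searched on the sense strand of the annotated 3′ UTR of 1 transcript per gene, as the 8mer AGCACTTA, the 7mer-m8 AGCACTT, the 7mer-A1 GCACTTA and the 6mer GCACTT, each match counted in its longest class. These letters overlap the match GCACTTT of miR-17-5p, a microRNA of another family with a shifted version of the seed.

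An 8mer or 7mer was found in 7 of the 10 members, against 19.4% of the 11671 tested protein-coding genes with a 3′ UTR. The members were picked as known or likely targets, so the count is a description. Cdkn1a and Lats2 each had an 8mer and a 7mer-m8, Rbl2 and Mbd2 an 8mer, Rbl1 and Lats1 a 7mer-m8, and Casp2 a 7mer-m8 with 2 7mer-A1 matches. Such a match was also found in 41% of genes with a 3′ UTR length within 25% of that of Lats1. The same share was 27.2% for Casp2, 19% to 21.9% for Cdkn1a, Rbl1, Rbl2 and Lats2, and 6.56% for Mbd2. Rb1 and Casp8 held a 6mer only. Cdkn1b had no match in 3439 bases of 3′ UTR, a length near which 41.3% of genes had an 8mer or 7mer. The longest matches of the members that rose in KO cells are shown with flanking bases, on GRCm38 and in the direction of the message, with the match in capitals.
Cdkn1a 8mer, chr17:29100489-29100518, plus strand: gtgggtgtcaaAGCACTTAgtgggtctgac
Cdkn1a 7mer-m8, chr17:29099817-29099846, plus strand: cagacctgaatAGCACTTtggaaaaatgag
Rbl1 7mer-m8, chr2:157147466-157147495, minus strand: tgcctgatcaaAGCACTTttggattgttct
Rbl2 8mer, chr8:91123815-91123844, plus strand: tgtatttttcaataaAGCACTTAtaaatta
Lats2 8mer, chr14:57691075-57691104, minus strand: agtatggaaagAGCACTTAttttgtggata
Lats2 7mer-m8, chr14:57690976-57691005, minus strand: ttgtatctgatAGCACTTgtccacagctag
Casp2 7mer-m8, chr6:42281547-42281576, plus strand: tataacctagaAGCACTTgtctctgctctt
The Rbl2 8mer ended 7 bases before the annotated end of the 3′ UTR, and its first base was the last of the letters AATAAA, the usual poly(A) signal. The Cdkn1a and Rbl1 7mer-m8 matches also held the miR-17-5p letters. Which 3′ ends these cells used was not measured here, so a site in the annotated UTR need not be in the message.

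Library totals ran from 1151649 to 4984833 counts, with the monosome libraries smallest in both genotypes. Reads per library were 524 to 3791 for Cdkn1a and 107 to 283 for Cdkn1b, but only 6 to 48 for Rb1, 8 to 45 for Lats1 and 9 to 101 for Rbl2, so the last 3 are the least precise. Dgcr8 itself (ENSMUSG00000022718) was lower in KO cells, at 8.73 to 22.99 against 26.1 to 29.6 CPM (counts scaled to the library total times its TMM factor) in high polysomes (log2 fold change -1.01 ± 0.23 SE, adjusted p = 0.000276), with -0.56 in monosomes and -0.45 in low polysomes. Reads at the 3′ end cannot show a deletion elsewhere in the gene. All 8 ESC markers were read in every group, with a summed level of 2795 to 5053 CPM. That sum was lower in KO than in WT high polysomes, 3146 to 3659 against 4587 to 5053 CPM, with Pou5f1 and Dppa5a called lower. The 6 primitive endoderm markers summed to 1.94 to 10.8 CPM and the 6 fibroblast feeder markers to 0.788 to 19.4 CPM, with Dcn and Postn at 0 in all 3 WT groups. Feeder sums were lower in KO cells in monosomes (1.18 to 1.67 against 4.42 to 8.04 CPM) and high polysomes (0.919 to 2.17 against 3.82 to 6.49 CPM). In low polysomes the genotypes overlapped, at 0.788 to 19.4 CPM in KO and 4.58 to 5.30 CPM in WT cells. Col1a1, the 1 feeder marker tested, was called lower in each fraction by limma. With edgeR it was called lower in monosomes and high polysomes, and with DESeq2 in monosomes only. The highest feeder sum was that of the low polysome library of KO gradient 1, and the part of these markers in the results was not tested.

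A gene was called where its adjusted p was under 0.05 and its absolute log2 fold change over 1. In high polysomes 5 of the 9 members tested were called, all higher in KO cells (Cdkn1a, Rbl1, Rbl2, Lats2 and Casp2), where 33.1% of all 12851 genes tested were called and 15.1% were called higher. In low polysomes 4 of 9 were called higher (Cdkn1a, Rb1, Rbl2 and Lats2), against 25% of all genes called and 11.4% called higher. In monosomes 2 of 9 were called higher (Rbl2 and Lats2), a share close to the 18.1% of all genes called there, while 8.43% were called higher. Rbl2 and Lats2 were called higher in all 3 fractions, as were 5.49% of all genes. With the adjusted p alone, 3 of 9 members passed in the monosome, 7 in the low polysome and 6 in the high polysome comparison, the last with Cdkn1b, which was lower, beside 37.3%, 52.3% and 60.7% of all genes. KO libraries lay above every WT library for 5 of 9 members in the monosome, 7 in the low polysome and 6 in the high polysome fraction, as they did for 23.5%, 28.6% and 29.9% of all genes, and below for Cdkn1b in high polysomes, as for 33.7%. Across the monosome, low and high polysome comparisons the 9 members had a median log2 fold change of 0.54, 0.98 and 1.11. Over all genes the medians were -0.05, 0.00 and -0.08. The members were chosen with earlier results of these data known, so these shares and medians are descriptions. Scaling to total counts instead moved the high polysome median of all genes by -0.22, and the calls there went from 1946 higher and 2303 lower to 1426 higher and 3114 lower. Under that scaling Cdkn1a, Rbl2, Lats2 and Casp2 were still called higher in high polysomes.

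**Figure D1:**
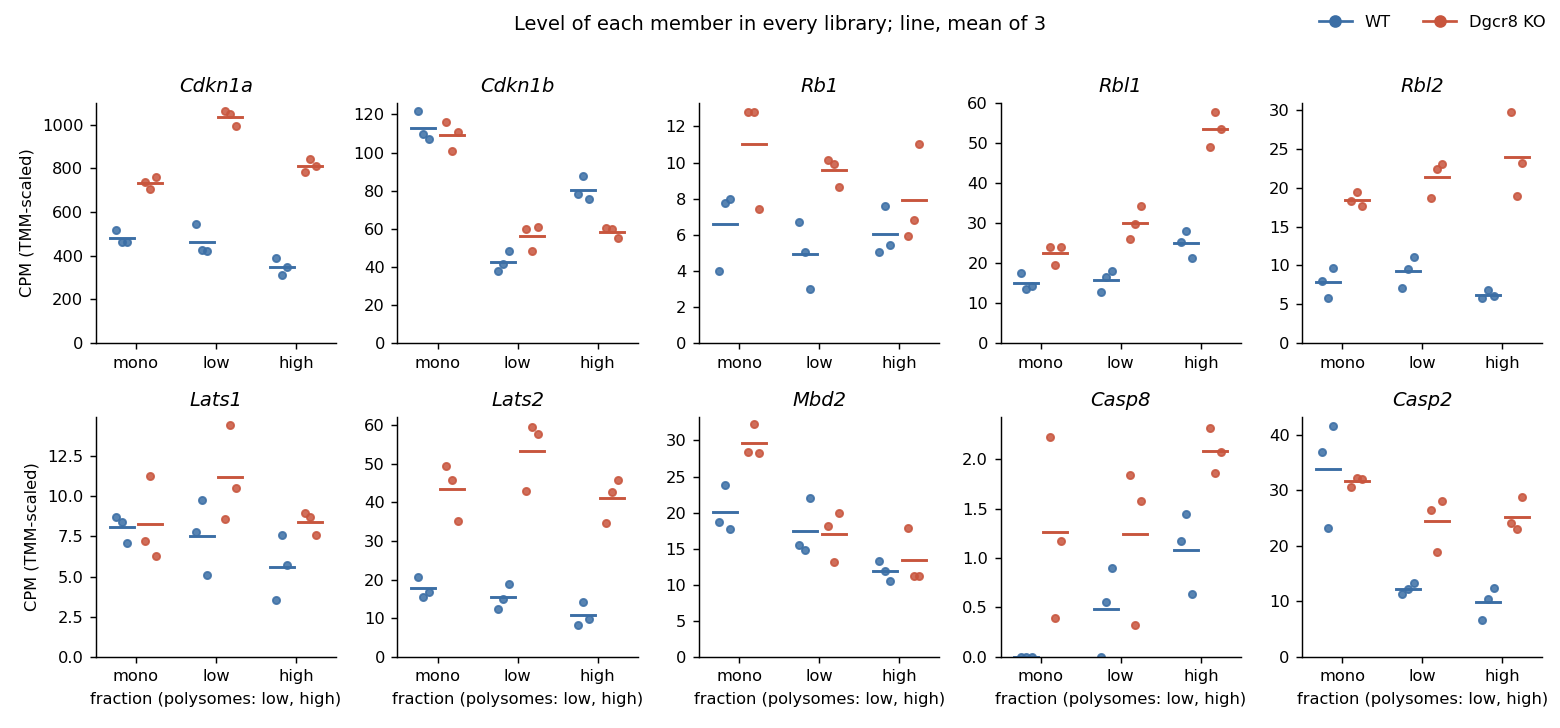
Level of each member in CPM (linear axis from 0) in the monosome, low polysome and high polysome libraries. Points are single libraries, 3 per group, and lines are means. In every fraction, the KO libraries of Cdkn1a, Rbl1, Rbl2 and Lats2 lie above all WT libraries of the same fraction, while those of Lats1 overlap WT in monosomes and low polysomes.

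To see how the CDK inhibitors were distributed, their levels were followed across the fractions. CPM is a share of each library, so it does not give the amount of a message in a fraction. Cdkn1a (ENSMUSG00000023067, chromosome 17, 29090976 to 29100727, plus strand), the p53-responsive inhibitor p21, stood at 518, 465 and 463 CPM in the 3 WT monosome libraries and at 736, 704 and 759 CPM in KO monosomes. In low polysomes it was at 544, 428 and 422 CPM in WT and 1063, 1052 and 996 CPM in KO cells. In high polysomes the values were 388, 310.3 and 350.0 CPM in WT and 785, 843 and 810.1 CPM in KO cells. The lowest KO library, of any fraction, was therefore above the highest WT library. Among the 6 groups only the WT monosome and WT low polysome libraries overlapped, and the KO low polysome group was highest. The rise was 1.52-fold in monosomes (log2 0.60 ± 0.11 SE, adjusted p = 4.36e-05), which did not reach the fold threshold, 2.25-fold in low polysomes (1.17 ± 0.11, adjusted p = 4.16e-12) and 2.34-fold in high polysomes (1.22 ± 0.11, adjusted p = 1.81e-12).

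Cdkn1b (ENSMUSG00000003031, chromosome 6, 134920401 to 134925513, plus strand), the inhibitor p27, behaved differently. Monosome levels were 122, 109.7 and 107 CPM in WT and 116, 101 and 111 CPM in KO cells, which overlapped. Low polysome levels were 37.7, 41.3 and 48.2 CPM in WT and 59.9, 48.4 and 61.0 CPM in KO cells, with all 3 KO libraries above WT by a narrow margin. High polysome levels were 78.01, 87.9 and 75.5 CPM in WT and 60.2, 60.0 and 55.2 CPM in KO cells, with all 3 KO libraries below. Cdkn1b therefore passed the adjusted p alone in opposite directions, at 1.33-fold higher in low polysomes (log2 0.41 ± 0.14 SE, adjusted p = 0.0136) and 0.726 of WT in high polysomes (-0.46 ± 0.13, adjusted p = 0.00265). The low polysome difference no longer passed without WT gradient 1 (adjusted p = 0.0845), WT gradient 2 (0.0639) or KO gradient 3 (0.0770). In both genotypes its CPM was lower in every low polysome library than in any monosome library.

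The pocket proteins came next. Rbl2 (p130, ENSMUSG00000031666, chromosome 8, 91070057 to 91123844, plus strand), which pairs with E2F4 in cells at rest, was at 8.04, 5.81 and 9.73 CPM in WT monosomes and 18.3, 19.4 and 17.6 CPM in KO monosomes. Low polysome levels were 7.05, 9.48 and 11.1 CPM against 18.7, 22.4 and 23.1 CPM, and high polysome levels were 5.85, 6.85 and 6.05 CPM against 29.8, 18.9 and 23.2 CPM. The 3 KO groups overlapped each other, and in WT cells the monosome libraries overlapped both polysome groups, which were apart from each other, while the lowest KO library (17.6 CPM) was above the highest WT library (11.1 CPM). Rbl2 rose 2.37-fold in monosomes (log2 1.246 ± 0.33 SE, adjusted p = 0.00285), 2.31-fold in low polysomes (1.21 ± 0.23, adjusted p = 1.98e-05) and 3.68-fold in high polysomes (1.88 ± 0.26, adjusted p = 7.94e-08).

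Rbl1 (p107, ENSMUSG00000027641, chromosome 2, 157145893 to 157204534, minus strand), the pocket protein of cycling cells, was at 17.4, 13.6 and 14.1 CPM in WT and 23.9, 19.4 and 23.9 CPM in KO monosomes. It was at 12.7, 16.5 and 18.1 CPM in WT and 26.1, 29.8 and 34.2 CPM in KO low polysomes. Its CPM was highest in high polysomes in each genotype, at 25.4, 28.1 and 21.3 in WT and 48.9, 57.8 and 53.5 in KO cells. KO libraries lay above WT in every fraction. The log2 fold change was 0.54 ± 0.26 SE in monosomes (adjusted p = 0.0974), 0.92 ± 0.19 in low polysomes (adjusted p = 5.72e-05) and 1.11 ± 0.16 in high polysomes (adjusted p = 1.79e-07), of which the last was called. That call was lost without WT gradient 3 (log2 0.99) and with total counts (0.89), since the change then fell just short of the fold threshold.

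Rb1 (ENSMUSG00000022105, chromosome 14, 73183673 to 73325822, minus strand) was read too thinly for a firm statement. It was at 4.02, 7.74 and 7.96 CPM in WT and 12.8, 12.8 and 7.44 CPM in KO monosomes, and at 6.70, 5.02 and 3.01 CPM in WT and 10.1, 9.93 and 8.67 CPM in KO low polysomes. High polysome levels were 5.07, 7.57 and 5.41 CPM in WT and 5.95, 6.83 and 11.03 CPM in KO cells. The genotypes overlapped in monosomes and high polysomes and were apart in low polysomes alone, where Rb1 was called (log2 1.02 ± 0.33 SE, adjusted p = 0.00806). Without WT gradient 3 that change was 0.72 (adjusted p = 0.0920), and it lay under the fold threshold, at 0.95 to 0.995, with edgeR, DESeq2, total counts or the stricter filter and without KO gradient 1 or 2.

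Of the Hippo kinases, Lats2 rose and Lats1 did not pass the test. Lats2 (ENSMUSG00000021959, chromosome 14, 57689662 to 57758388, minus strand) was at 20.8, 15.5 and 16.8 CPM in WT and 49.5, 45.8 and 35.3 CPM in KO monosomes. It was at 12.3, 15.1 and 18.97 CPM in WT and 43.0, 59.6 and 57.5 CPM in KO low polysomes, and at 8.19, 14.1 and 9.87 CPM in WT and 34.7, 42.6 and 45.7 CPM in KO high polysomes. The lowest KO library of any fraction (34.7 CPM) was above the highest WT library (20.8 CPM), and within each genotype neighbouring groups overlapped. Lats2 was higher by 2.39-fold in monosomes (log2 1.26 ± 0.25 SE, adjusted p = 0.000126), 3.42-fold in low polysomes (1.77 ± 0.20, adjusted p = 4.71e-10) and 3.87-fold in high polysomes (1.95 ± 0.23, adjusted p = 2.27e-09).

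Lats1 (ENSMUSG00000040021, chromosome 10, 7681214 to 7716460, plus strand) was at 8.71, 8.39 and 7.07 CPM in WT and 7.23, 11.3 and 6.27 CPM in KO monosomes. Low polysome libraries held 7.76, 9.76 and 5.12 CPM in WT and 8.61, 14.4 and 10.5 CPM in KO cells, and high polysome libraries held 3.51, 7.57 and 5.73 CPM in WT and 8.93, 8.70 and 7.58 CPM in KO cells. All neighbouring groups overlapped in the order of levels, although the 3 KO high polysome libraries lay just above the highest WT one. In high polysomes the log2 fold change was 0.59, with a 95% interval from -0.07 to 1.252 (adjusted p = 0.115), so a rise like that of Rbl1 lies within the interval while that of Lats2 does not.

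Mbd2 (ENSMUSG00000024513), which binds methylated CpG and recruits the NuRD complex, was at 18.8, 23.9 and 17.7 CPM in WT and 28.4, 32.2 and 28.2 CPM in KO monosomes. In low polysomes it was at 15.5, 14.8 and 21.98 CPM in WT and 18.1, 13.1 and 19.97 CPM in KO cells, and in high polysomes at 13.3, 11.9 and 10.5 CPM in WT and 17.9, 11.2 and 11.3 CPM in KO cells. The genotypes were apart only in monosomes (log2 0.54 ± 0.24 SE, adjusted p = 0.0761), which did not pass the test. The 95% interval in high polysomes ran from -0.37 to 0.62. In both genotypes the CPM of Mbd2 was lower in high polysomes than in monosomes.

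The caspases differed in how well they could be measured. Casp2 (ENSMUSG00000029863, chromosome 6, 42264985 to 42282508, plus strand), the initiator caspase of the PIDDosome, was at 36.8, 23.2 and 41.6 CPM in WT and 30.6, 32.2 and 32.1 CPM in KO monosomes. In low polysomes it was at 11.3, 12.3 and 13.2 CPM in WT and 26.4, 18.9 and 28.1 CPM in KO cells. In high polysomes it was at 6.63, 10.5 and 12.4 CPM in WT and 24.1, 22.99 and 28.7 CPM in KO cells. The genotypes overlapped in monosomes and were apart in both polysome fractions. Monosome levels did not differ beyond the spread (log2 -0.03, 95% interval -0.46 to 0.41), while Casp2 was 1.97-fold higher in low polysomes (0.98 ± 0.22 SE, adjusted p = 0.000264) and 2.59-fold higher in high polysomes (1.37 ± 0.24, adjusted p = 6.90e-06).

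Casp8 (ENSMUSG00000026029, chromosome 1, 58795374 to 58847503, plus strand), the initiator caspase of death receptors, gave 57 reads in 18 libraries. The WT monosome libraries held 0, 0 and 0 reads, the low polysome libraries 0, 2 and 3, and the high polysome libraries 3, 4 and 2. The KO libraries held 4, 1 and 3 reads in the monosome, 6, 1 and 6 in the low polysome, and 7, 6 and 9 in the high polysome fraction. With 3 reads taken as the floor of a library, which is 0.689 to 2.65 CPM, 11 of 18 libraries were at or under it. No fold change is given, because nearly all WT libraries were at the floor, and 0 reads in WT monosomes allow up to 3 in each. The floor covers counting error only, since reads were not reduced to molecules.

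**Figure D2:**
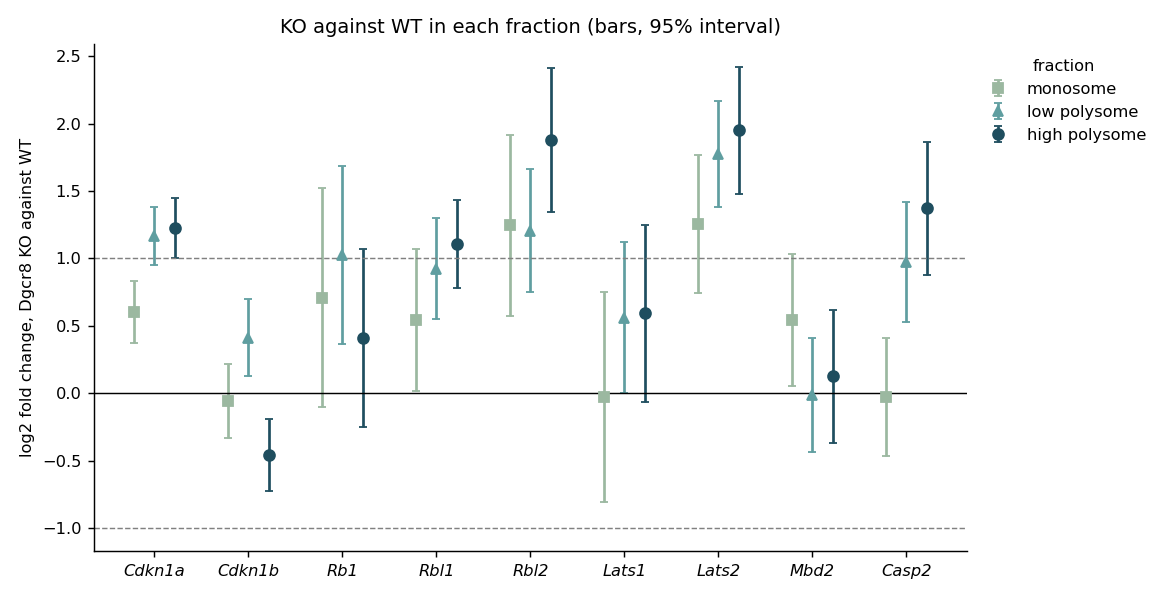
Log2 fold change of Dgcr8 KO against WT for the 9 members tested in monosomes (squares), low polysomes (triangles) and high polysomes (circles), with 95% intervals from limma. Dashed lines mark the fold threshold at 1 and -1. Rbl2 and Lats2 lie above 1 in all 3 fractions, and Casp2 lies near 0 in monosomes and above 1 in high polysomes.

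To ask whether the messages also shifted along the gradient, translation level was taken as the ratio of high polysome to monosome counts, on a log2 scale. Its change between genotypes is the interaction of genotype and fraction, which uses the same libraries as the comparisons above. 1 of the 9 members was called, Casp2, against 15.1% of all genes called and 6.29% called higher. With the adjusted p alone Cdkn1a also passed, and 2 of 9 members were then higher, beside 13% of all genes called higher by that rule. The members had a median change of 0.62, beside 0.01 over all genes. With total counts the median of all genes moved by -0.33, and the calls went from 808 higher and 1132 lower to 282 higher and 2070 lower.

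Casp2 had the lowest translation level of the members in WT cells. In the 3 WT gradients its log2 ratio was -2.35, -1.10 and -1.69, and in the 3 KO gradients -0.33, -0.47 and -0.16, which did not overlap. In the model the level was -1.72 ± 0.27 SE in WT (adjusted p = 6.91e-07) and -0.32 ± 0.19 in KO cells (adjusted p = 0.130), and the change was 1.40 ± 0.33 (2.64-fold, adjusted p = 0.00103). The change was smallest without WT gradient 1 (1.06, adjusted p = 0.0325) and was 1.07 with total counts, and the call held under each alternative run.

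Cdkn1a had log2 ratios of -0.42, -0.58 and -0.40 in WT and 0.09, 0.26 and 0.09 in KO gradients, again without overlap. The change was 0.62 ± 0.16 SE (1.54-fold, adjusted p = 0.00259). With total counts it was 0.29 (adjusted p = 0.152), so that it no longer passed. Rbl2, Lats2, Lats1 and Rbl1 had changes of similar size, 0.63, 0.69, 0.62 and 0.56, but with standard errors of 0.42, 0.34, 0.50 and 0.31 none passed the test (adjusted p = 0.283, 0.132, 0.390 and 0.172), and their gradients overlapped, while the 95% intervals of all 4 reached past 1.

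Cdkn1b, Mbd2 and Rb1 had values below 0, at -0.41 ± 0.19 SE, -0.42 ± 0.34 and -0.30 ± 0.52, and did not pass the test (adjusted p = 0.107, 0.398 and 0.717). The Cdkn1b ratios were -0.64, -0.32 and -0.50 in WT and -0.94, -0.74 and -0.998 in KO gradients, with all KO gradients lower. With total counts Cdkn1b passed the adjusted p alone, at -0.73 (adjusted p = 0.00276). In the exact permutation test of 3 against 3 gradients, two-sided, Casp2, Cdkn1a and Cdkn1b reached p = 0.1, the smallest that this design allows. Cdkn1a and Casp2 were among the 20.3% of all genes with all KO gradients above WT, and Cdkn1b among the 21.4% with all below.

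**Figure D3:**
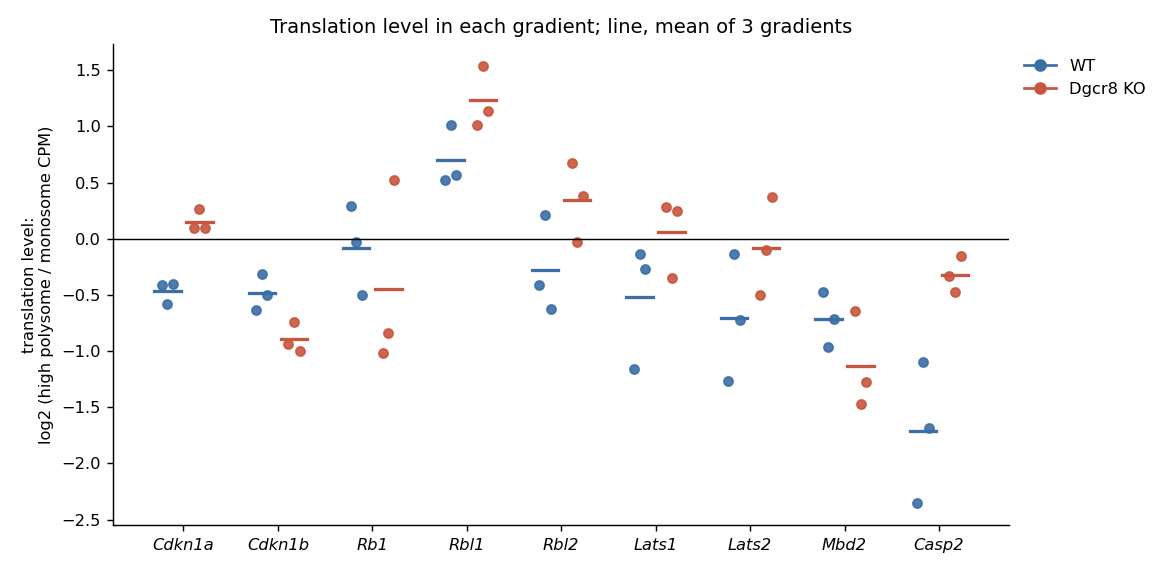
Translation level of the 9 members tested, as the log2 ratio of high polysome to monosome CPM (prior count of 2), in each of 3 WT and 3 KO gradients, with the mean as a line. The gradients of Casp2 and Cdkn1a lie higher in KO than in WT cells, those of Cdkn1b lie lower, and those of the other members overlap.

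The other ratios placed these shifts along the gradient. In the ratio of low polysomes to monosomes Casp2 was the 1 member of 9 called (1.004 ± 0.31 SE, adjusted p = 0.0258), against 5.03% of all genes called and 1.23% called higher. That value sat on the fold threshold. It fell under it without WT gradient 1 or 3, without KO gradient 1 or 3 and with 4 of the other settings, down to 0.85. The adjusted p of Casp2 also rose over 0.05 without WT gradient 1 (0.141) or 3 (0.112) and without KO gradient 1 (0.0687) or 3 (0.115). It did so too with total counts (0.0544) and with no filter (0.0928). Cdkn1a passed the adjusted p alone (0.56 ± 0.16, adjusted p = 0.0120), so that 2 of 9 members did, beside 3.9% of all genes higher by that rule. Cdkn1a no longer passed without WT gradient 2 (adjusted p = 0.171), without WT gradient 3 (0.0676) or with total counts (0.0519). In the ratio of high to low polysomes limma called 0 of 9 members, against 5.18% of all genes, and 1 member, Cdkn1b, had an unadjusted p under 0.05, while edgeR and DESeq2 also called 0. Cdkn1b passed the adjusted p alone, as its log2 ratio fell by 0.87 ± 0.19 (adjusted p = 0.00124), where 10.3% of all genes were lower by that rule, and it was called without WT gradient 3 (-1.01). With total counts the share of all calls that were higher went from 24.4% to 10.4% in the first ratio and from 44.1% to 12.6% in the second.

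Within each genotype, the members lay at different places on the gradient. Rbl1 was the only one of 9 whose high polysome level passed the adjusted p above its monosome level, at a log2 ratio of 0.69 ± 0.25 SE in WT (adjusted p = 0.0183) and 1.26 ± 0.18 in KO cells (adjusted p = 4.84e-08). In WT cells Casp2 was called lower, and Cdkn1a (-0.47), Cdkn1b (-0.49), Lats2 (-0.75) and Mbd2 (-0.78) passed the adjusted p below 0, where 30.1% of all genes were called and 54% passed the adjusted p alone. In KO cells Rbl1 was called higher and Mbd2 lower (-1.20 ± 0.21, adjusted p = 4.52e-06), and Cdkn1b was at -0.90 (adjusted p = 1.25e-07), where 43% of all genes were called and 67.7% passed the adjusted p alone. Cdkn1a and Lats2, below 0 in WT cells, were at 0.15 and -0.06 in KO cells.

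The length of the coding sequence (CDS) moved with the change in translation level over all genes. The median change ran from -0.94 in the shortest decile to 0.62 in the longest, and that of KO against WT in high polysomes from -1.13 to 0.66. The members fell in different deciles. Cdkn1a, with a CDS of 477 bases, lay in the shortest decile, where its translation level change was 1.56 above the median and its high polysome change 2.35 above. Casp2, with 1356 bases, lay in decile 5 and was 1.43 above the median in translation level and 1.46 in high polysomes. Rbl1, Rbl2, Lats1 and Lats2, with 3126 to 3405 bases, shared decile 9, whose median change in translation level was 0.49, and were 0.07 to 0.20 above it, while Rb1, with 2763 bases in the same decile, was 0.79 below. Mbd2, in decile 5, was 0.38 below the median there. In high polysomes the median of decile 9 was 0.48. Rbl2 was 1.40, Lats2 1.47 and Rbl1 0.63 above it, while Lats1 was 0.11 above and Rb1 0.07 below. Cdkn1b, in decile 2, was 0.23 above the median change of -0.64. The part of CDS length in the members' changes was not tested.

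**Figure D4:**
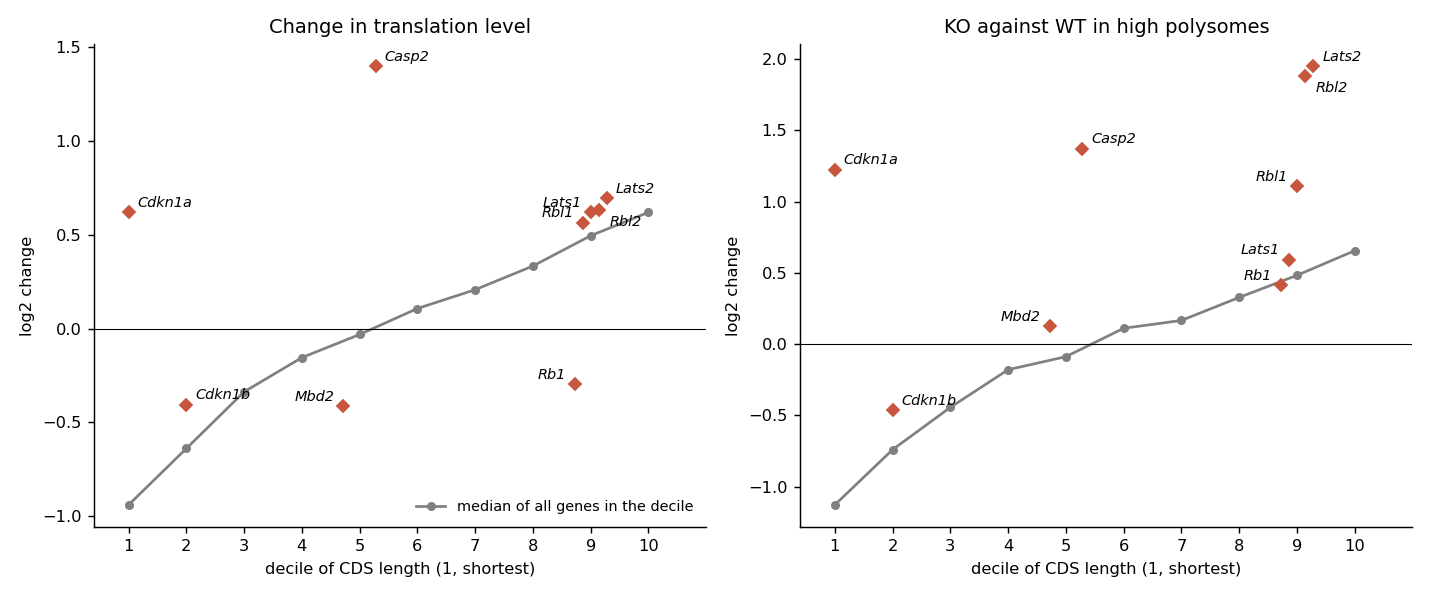
Members (diamonds) beside the median of all genes (grey line) in each decile of CDS length, with the log2 change in translation level on the left and of KO against WT in high polysomes on the right. Points of members in 1 decile are moved sideways so that they can be told apart. Cdkn1a and Casp2 lie far above the median of their deciles in each panel, and the decile 9 members other than Rb1 lie close to it on the left.

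Beside the sites, the values fell as follows. Of the 7 members with an 8mer or 7mer, 6 had a change in translation level above 0, from 0.56 for Rbl1 to 1.40 for Casp2. Mbd2, with an 8mer, was at -0.42. Among the 6, Casp2 was called and Cdkn1a passed the adjusted p alone. Rbl1, Rbl2, Lats1 and Lats2 did not pass the test, and they lay 0.07 to 0.20 above the median of their CDS decile. The tested members with a 6mer only or no match, Rb1 and Cdkn1b, were at -0.30 and -0.41. In high polysomes Cdkn1a, Rbl2 and Lats2, which have an 8mer, and Rbl1 and Casp2, which have a 7mer-m8, were called higher, while Lats1 with a 7mer-m8 and Mbd2 with an 8mer were not. No test was made on these few genes, which were chosen as known or likely targets.

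The other genes of the same pathways were then counted from lists of known members of each pathway, beside the shares of all genes called that are given above. In high polysomes, where Cdkn1a was called higher, 4 of 5 other CDK inhibitors were called lower, namely Cdkn2d (log2 -1.88, adjusted p = 5.92e-13), Cdkn1c (-1.93, adjusted p = 0.000562), Cdkn2c (adjusted p = 0.00247) and Cdkn2b (adjusted p = 0.00391). Over all genes, 2303 of 12851 were called lower in high polysomes. The part of CDS length in these calls was not tested. Over all genes, the median high polysome change was lowest in the shortest CDS decile (-1.13). In monosomes 1 of the 5 other CDK inhibitors, Cdkn2b, was called higher. Only Cdkn2d, the INK4 inhibitor p19, was read well, at 104 ± 10.3 CPM in WT and 28.7 ± 7.09 CPM in KO high polysomes, and its translation level fell by 1.36 (adjusted p = 3.17e-05). The other 3 were at 4.15 to 7.57 CPM in WT and 1.03 to 2.35 CPM in KO high polysomes, where 2 of 3 Cdkn2b libraries and 1 of 3 Cdkn2c libraries held 3 reads or fewer, so no fold is given for Cdkn2b and Cdkn2c. Cdkn2b was also called lower in translation level, but its WT monosome libraries held at most 2 reads.

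In the RB, E2F and DREAM list, 1 of 15 other genes was called higher and 3 lower in high polysomes, with a median of -0.47 beside -0.08 over all genes. Lin37, a subunit of the DREAM complex that holds p130 and E2F4, was higher (1.45, adjusted p = 9.78e-05), and E2f8 (-1.19) and the E2F partner Tfdp1 (-1.18) were lower. Tfdp2, another E2F partner, was called lower in translation level (adjusted p = 2.88e-05). Of 12 G1-S cyclins and kinases tested, 4 were called higher and 2 lower in high polysomes. Ccnd2 went from 15.7 ± 3.51 to 97.1 ± 2.23 CPM (log2 2.62), Ccnd1 from 184 ± 13.6 to 569.5 ± 46.3 CPM (1.62) and Cdk6, the kinase that D cyclins activate, from 35.8 ± 1.59 to 106 ± 5.04 CPM (1.57). Cks1b, the cofactor with which the SKP2 ubiquitin ligase recognises phosphorylated p27, fell by 1.38. Skp2 itself was called higher and Ccna2, of the same list, was called lower, and both calls held with total counts. Messages for D cyclins and CDK6, which promote the G1 to S transition, and for p21 and p130, which oppose it, were called higher in the same fraction. In translation level limma, edgeR and DESeq2 each called 0 of these 12, with 4 higher and 2 lower at an unadjusted p under 0.05, and with total counts 2 were called lower.

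Of 18 other Hippo genes, 2 were called higher and 1 lower in high polysomes, with a median of -0.08, the same as over all genes. The 2 higher were Ccn2 (328 ± 46.0 to 1794 ± 254 CPM, log2 2.45) and Ccn1 (94.3 ± 19.7 to 283 ± 165 CPM, 1.45), the classical targets of YAP, and the lower one was the YAP partner Tead2 (-1.65, adjusted p = 1.18e-13). The Ccn1 libraries of KO cells spread widely. In translation level Ccn2 was called higher (1.38, adjusted p = 6.10e-05) and Tead4 lower (-1.19). Of 7 other methyl-CpG genes, Gatad2b, a NuRD subunit, was called higher in high polysomes (2.00, adjusted p = 6.89e-18) and in translation level (1.62), while Mbd3, the paralogue of Mbd2, was called lower in translation level (-1.04).

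Among 10 other caspases and adaptors tested, 1 was called higher and 3 lower in high polysomes. Apaf1, the scaffold of the apoptosome, was higher (1.06, a call lost with total counts), while Casp9 (-1.42), Casp6 (-1.48) and Cradd (-1.58, adjusted p = 1.19e-06), the adaptor that brings CASP2 to the PIDDosome, were lower. Of 11 further genes reported as ESCC targets, 5 were called higher in high polysomes, with a median of 0.84, and limma, edgeR and DESeq2 each called 0 lower, with 1 at an unadjusted p under 0.05. Lefty1, an inhibitor of Nodal, went from 139.7 ± 7.17 to 4594 ± 928 CPM (log2 5.02), and Ei24, Smarcc2 and Tgfbr2 were higher by 1.63, 1.49 and 1.26. In translation level 3 of these 11 were called higher, Lefty1 (1.78), Smarcc2 (1.58) and Lefty2, of which Lefty2 was not called with total counts in either comparison.

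**Figure D5:**
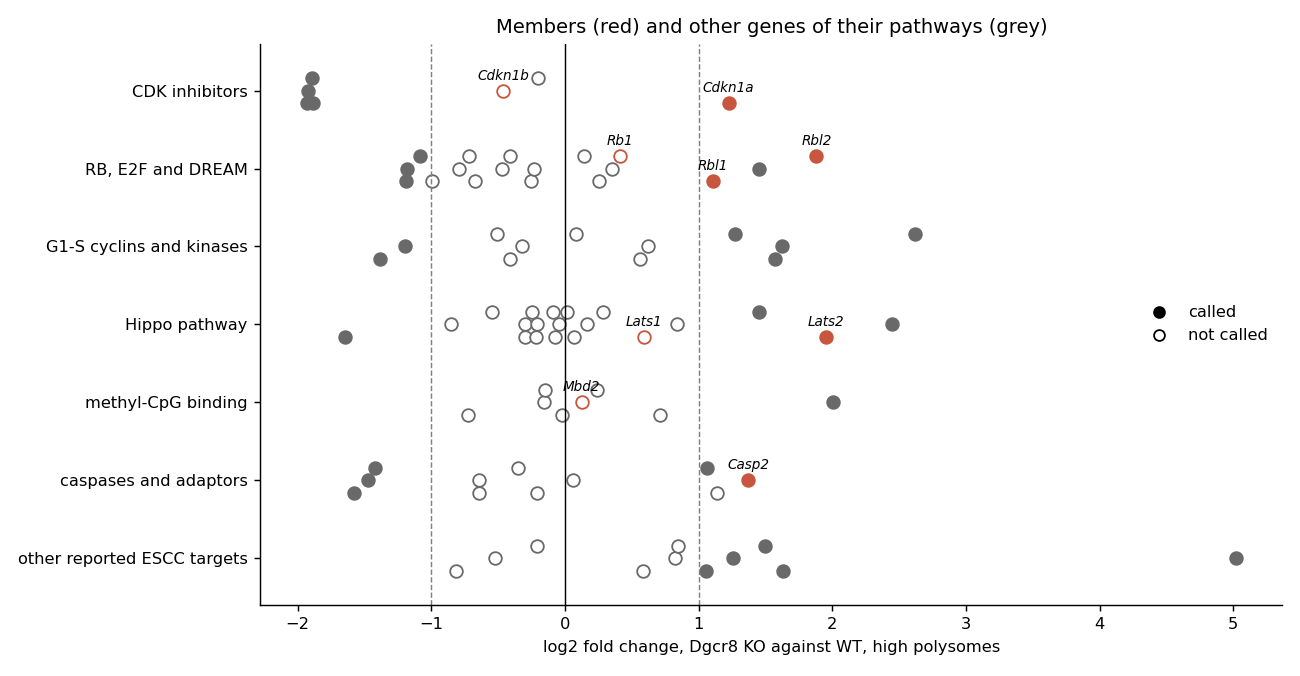
Log2 fold change of Dgcr8 KO against WT in high polysomes for each tested gene of 7 lists, with the members in red and named and the other genes in grey. Filled points were called and dashed lines mark 1 and -1. Cdkn1a lies apart from the other CDK inhibitors, of which 4 of 5 were called lower.

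Genes with a pattern most like that of 3 members were found by Pearson correlation of log2 CPM over the 18 libraries, among 9021 genes with a mean of 10 CPM or more. The libraries share genotype and fraction, so the values are descriptions. Cdkn1a was most like Scamp5 (r = 0.97), Slc35b4 (0.96) and 9530068E07Rik (0.96), Rbl2 most like Ccdc141 (0.96), Sh3pxd2a (0.96) and Lmo7 (0.95), and Lats2 most like Fam189a2 (0.98), Slc18b1 (0.97) and Lmbr1 (0.96).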

How the data were processed

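RNA from 3 polysome gradient fractions of WT and Dgcr8 KO mouse ESCs was sequenced with QuantSeq. The authors deposited raw counts, made with cutadapt 1.14, STAR 2.5.3a on mm10, keeping reads with a single alignment, and featureCounts 1.5.3, by strand over GENCODE M14. The 92 spike-in entries (0.000522 to 0.00215% of reads) were left out. Coordinates and 3′ UTRs came from GENCODE M21 on GRCm38 (51274 genes matched, 1 APPRIS principal transcript per gene) and microRNAs from RefSeq.

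Genes with 3 CPM in at least 3 libraries were fitted with limma-voom (limma 3.58.1, R 4.3.3), TMM factors and 1 mean for each of 6 groups. All 18 libraries were in 1 fit and shared 1 estimate of the spread per gene, so each comparison rests on the spread in every group. This fit had no term for the gradient. Adjusted p-values are limma's, two-sided, with Benjamini-Hochberg adjustment over 12851 genes. The filter and the interaction term follow the study's methods. edgeR 4.0.16, DESeq2 1.42.0, other scalings and filters, replicate blocks and leaving out gradients were alternatives, and the fit was tested on simulated data.

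The members and lists were chosen with earlier results of these data known. All members were named, with Dgcr8, up to 4 other genes per list called in translation level or high polysomes (largest change first), and the 3 genes most like Cdkn1a, Rbl2 and Lats2. Lefty2, Pou5f1, Dppa5a, Dcn, Postn, Col1a1, Skp2 and Ccna2 were named outside that rule, after their values were seen. Libraries of a group differed by more than sampling noise (chi-square per gene 1.92 to 7.48).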

Additional observations from a re-analysis of the deposited data

Results flagged for a closer look

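The change in translation level of Casp2, 1.40 on the log2 scale, was singled out because the effect of the fraction differed between the genotypes by the interaction test (limma, adjusted p = 0.00103), with all 3 KO gradients above all 3 WT gradients. The change in its low polysome to monosome ratio, 1.0 on the log2 scale, was singled out by the same test (adjusted p = 0.0258). That adjusted p rose over 0.05 with total counts, with no filter, without WT gradient 1 or 3 and without KO gradient 1 or 3. Both changes use the same monosome libraries, in which Casp2 had 23.2 to 41.6 CPM in WT cells.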

How the results depend on the processing

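Of 963 values of single members under an alternative, 886 kept their direction and their side of the threshold, 17 lost a call, 15 gained one and 45 changed sign. These include the adjusted p alone, which repeats the values of the main fit. There a call could be gained, as for Cdkn1a, Cdkn1b, Rbl1 and Casp2, but no call could be lost and no sign could change. The call of Casp2 in translation level held in each setting run, from 1.06 to 1.69. The number of members called did not move by over 1.5 times except as follows. With the adjusted p alone it was 2 in translation level, 2 in the low polysome to monosome ratio, 1 in the high to low polysome ratio and 7 in low polysomes. In the low polysome to monosome ratio it was 0 with total counts, DESeq2 size factors, no filter or the stricter filter, and 0 to 1 when 1 gradient was left out. In the high to low polysome ratio it was 1 with total counts and 0 to 1 when 1 gradient was left out. Without KO gradient 1, whose low polysome library had the highest feeder marker sum, 4 members were called in low polysomes, Cdkn1a, Rbl1, Rbl2 and Lats2. Over all genes, no filter gave 3679 calls in monosomes against 2320, and the adjusted p alone gave 3621 in translation level, 1464 and 2288 in the other ratios, and 4797, 6716 and 7802 in the KO against WT comparisons of monosomes, low polysomes and high polysomes. The lowest read members, Rb1, Lats1 and Rbl2, are limited by depth.

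Values that changed sign were mostly near 0, and the cause was not tested. With total counts the high to low polysome ratio changed by -0.143 for Cdkn1a, -0.016 for Rbl1, -0.157 for Lats1, -0.0191 for Lats2 and -0.0641 for Mbd2, monosomes by 0.048 for Cdkn1b, 0.0757 for Lats1 and 0.0766 for Casp2, and high polysomes by -0.102 for Mbd2, and translation level in KO cells was -0.0981 for Cdkn1a and -0.23 for Lats1. In monosomes Lats1 was at 0.0363 with edgeR, 0.0331 with DESeq2, 0.0397 with no filter and 0.0236 with only the compared libraries. With no filter Cdkn1b was at 0.00829 and Casp2 at 0.0329 in monosomes and Mbd2 at 0.00271 in low polysomes, and Casp2 was at 0.0246 with only the compared libraries.

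With 1 gradient left out, the low polysome to monosome change ran from -0.128 to 0.86 for Rb1 and -0.243 to 0.115 for Rbl2. The high to low polysome change ran from -0.036 to 0.331 for Rbl1, -0.262 to 0.337 for Lats1, -0.0292 to 0.442 for Lats2 and -0.133 to 0.40 for Mbd2. Monosome values ran from -0.0992 to 0.00271 for Cdkn1b, -0.301 to 0.179 for Lats1 and -0.237 to 0.115 for Casp2. Mbd2 ran from -0.156 to 0.166 in low and -0.0704 to 0.252 in high polysomes. Translation level ran from -0.334 to 0.111 for Rb1 in WT cells, and from -0.0974 to 0.263 for Lats1 and -0.301 to 0.135 for Lats2 in KO cells.

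Libraries of a genotype with the same replicate number were taken as fractions of 1 gradient. The ratios per gradient rest on that reading of the labels, while the main fit had no gradient term. The counts alone did not clearly show a pairing, within or between genotypes. Deviations from group means correlated at 0.0317 to 0.135 within a gradient (18 pairs, 4 over 0.1) and at 0.000175 to 0.102 between genotypes (9 pairs, 1 over 0.1). With the replicate block the members called stayed at 1 in translation level, 1 in the low polysome to monosome ratio, 0 in the high to low ratio (limma, 1 at an unadjusted p under 0.05 without the block, 0 by edgeR and DESeq2), 2 in the monosome, 4 in the low polysome and 5 in the high polysome comparison, while Lats1 changed sign to -0.0132 in the high to low ratio and to 0.0242 in monosomes. Over all genes the block gave 1975, 699, 625, 2365, 3212 and 4289 calls in the same order.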
